A study of Arabidopsis thaliana with 18 samples.

Results

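Transcripts of 10 ion channels and proton pumps were followed in Arabidopsis seedlings treated with abscisic acid (ABA). The set is named for guard cells, which open and close stomata with such proteins, but SLAH1 and SLAH2 are known from the root. The members were chosen by gene identifier, and all 10 were present among the 32833 genes listed for each library. The set holds the anion channels SLAC1 (AT1G12480), SLAH1 (AT1G62280), SLAH2 (AT4G27970), SLAH3 (AT5G24030) and ALMT12 (AT4G17970, also called QUAC1). It further holds the K+ channels KAT1 (AT5G46240), KAT2 (AT4G18290) and GORK (AT5G37500), and the plasma membrane H+-ATPases AHA1 (AT2G18960) and AHA2 (AT4G30190). RNA was sequenced from whole 2-week-old seedlings of the Columbia ecotype, wild type (WT) or bro1-1, which were kept without ABA (mock) or given 100 µM ABA for 2 h or 4 h. Each of the 6 groups had 3 libraries, 18 in all, described by the submitters as independent biological replicates. The bro1-1 line is a single homozygous SALK line with a T-DNA in an intron of AtBro1, a gene for a BRO1-like domain protein. All seedlings grew on the same half-strength medium with sucrose. Total expected counts ran from 15568032 to 17853167 per library.

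Stomata open when guard cell H+-ATPases energise the membrane and K+ enters through inward channels such as KAT1 and KAT2. They close when ABA signalling releases anion channels, SLAC1 and SLAH3 of the slow type and ALMT12 of the rapid type, which depolarise the membrane so that K+ leaves through the outward channel GORK. The ABA-activated kinase OST1 phosphorylates SLAC1, and clade A protein phosphatases such as ABI1 hold it back. Much of this control acts on the proteins, whereas the values given here are transcript levels. SLAH1 and SLAH2 are known from the root. Other members also work outside guard cells: GORK in root hairs, and AHA1 and AHA2 in most tissues.

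The K+ channels carry the glycine-tyrosine-glycine signature of K+ selective pores, whose codons stand in capitals in the reference bases below. They were read from the TAIR10.1 genome with the RefSeq annotation, 5′ to 3′ in the direction of each gene, and show that the inward and the outward channels share the signature while the bases around it differ. The KAT1 stretch lies at chr5:18745264-18745308 (minus strand) and the KAT2 stretch at chr4:10116562-10116606 (plus strand). The GORK stretch, chr5:14892029-14892161 on the minus strand, is interrupted by an intron, which is left out.
KAT1: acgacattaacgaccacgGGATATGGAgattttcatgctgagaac
KAT2: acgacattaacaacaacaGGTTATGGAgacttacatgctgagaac
GORK: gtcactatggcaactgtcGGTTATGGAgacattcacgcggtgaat

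The 3′ ends of the AHA1 and AHA2 coding sequences are shown because these pumps are switched on at this end, by phosphorylation of the threonine next to the last residue and binding of 14-3-3 proteins. The codons for the last 3 residues, tyrosine, threonine and valine, are in capitals. The AHA1 bases lie at chr2:8227209-8227268 (plus strand) and the AHA2 bases at chr4:14770820-14770879 (minus strand).
AHA1: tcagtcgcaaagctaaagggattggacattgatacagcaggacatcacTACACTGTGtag
AHA2: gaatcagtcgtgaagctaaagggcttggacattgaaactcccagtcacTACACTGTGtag
The 2 coding sequences were identical at 86.1% of aligned bases and 91.2% of residues, with a longest identical stretch of 59 bases. KAT1 and KAT2 were identical at 77.1% of bases and 72.0% of residues. Read in the sense direction, no window of 100 bases in a transcript of any member occurred in a transcript of another gene.

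Promoters were read for the ABA response element core ACGTG, the letters that ABF-type bZIP factors are known to bind, in the 250 bases before each annotated start and on both strands. The core was found in 5 members, SLAH1, SLAH3, ALMT12, KAT1 and KAT2, and in 22.9% of 27443 promoters of the same length. Below, ACGTG on either strand is in capitals, and CACGTG holds a match on each strand that overlap. Positions are counted back from the base before the start. SLAH3 is shown for its match at -22, KAT1 for 3 matches at -221, -220 and -208, and KAT2 for 2 at -240 and -239. GORK, SLAH2 and AHA2, which changed with ABA as described below, held no ACGTG in this window, and the 120 bases nearest the start are printed for them. The stretches lie at chr5:8122915-8122956 (SLAH3, minus strand), chr5:18747590-18747647 (KAT1, minus), chr4:10114544-10114579 (KAT2, plus), chr5:14895234-14895353 (GORK, minus), chr4:13920379-13920498 (SLAH2, minus) and chr4:14776248-14776367 (AHA2, minus).
SLAH3: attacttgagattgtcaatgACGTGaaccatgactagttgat
KAT1: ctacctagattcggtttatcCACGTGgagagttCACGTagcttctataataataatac
KAT2: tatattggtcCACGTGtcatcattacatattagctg
GORK: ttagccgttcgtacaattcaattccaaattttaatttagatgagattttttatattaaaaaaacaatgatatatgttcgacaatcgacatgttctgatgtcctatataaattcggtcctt
SLAH2: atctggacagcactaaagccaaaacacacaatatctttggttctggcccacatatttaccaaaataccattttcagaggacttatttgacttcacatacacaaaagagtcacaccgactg
AHA2: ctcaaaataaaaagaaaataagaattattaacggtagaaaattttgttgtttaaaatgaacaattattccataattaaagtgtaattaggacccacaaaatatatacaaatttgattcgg
A match is a description of the letters only, and a window without one says nothing about a factor. The element TAAAG, known from guard cell promoters as a Dof factor site, occurred in SLAH2, ALMT12, KAT2 and AHA2 and in 58.8% of promoters.

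The genes lie on chromosomes 1 (SLAC1 and SLAH1), 2 (AHA1), 4 (SLAH2, ALMT12, KAT2 and AHA2) and 5 (SLAH3, KAT1 and GORK). SLAC1, at chr1:4257268-4259300 on the minus strand, is the only member whose annotated span overlaps other genes. AT1G12470, on the opposite strand, shares 125 of its exon bases and the lncRNA AT1G04953, also opposite, shares 683 of 1881. AT1G04953 had 0 to 3 counts in every library, and AT1G12470 had 568 to 911. The strand setting of the counting was not given in the sources used here, so reads of SLAC1 and of these partners cannot be told apart, and its values are uncertain to that extent.

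The labels and the treatment were checked first. In the bro1-1 libraries AtBro1 stood at 11.4 ± 1.03 CPM (counts scaled to the library total with TMM factors over the 18 libraries; SD, n = 3) at mock, 184 ± 11.2 after 2 h and 154 ± 28.9 after 4 h. The WT levels were 15.5 ± 4.77, 480 ± 65.6 and 435 ± 134 CPM. AtBro1 was called lower in bro1-1 at 2 h (log2 fold change -1.38, standard error 0.149, adjusted p = 0.0440 by edgeR) but not at mock (-0.45) or at 4 h (-1.51, 0.260, adjusted p = 0.199), and it was present in every bro1-1 library. The mock and 4 h levels therefore do not tell the genotypes apart by this test. At 4 h the libraries nevertheless did not overlap, at 471, 286 and 546 CPM in WT against 137, 187 and 138 in bro1-1. At mock they did overlap. Gene counts cannot show whether the bro1-1 reads come from a truncated transcript. The ABA control genes RAB18, RD29A and RD29B were called higher in all 4 comparisons of ABA with mock, and RAB18 went from 25.4 ± 12.5 CPM to 1470 ± 507 in WT at 4 h. Guard cell identity could be checked only in bulk: all 10 guard cell markers on the list were detected in every group, with summed levels of 1140 to 2850 TPM (a share of each library's transcripts, corrected for their length) per library. In whole seedlings, fewer guard cells and less RNA per guard cell cannot be told apart.

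A mock library of each genotype stood apart. The 4 mesophyll markers RBCS1A, CAB3, LHCB2.1 and RCA summed to 8180 TPM in WT mock replicate 2 and to 10500 in bro1-1 mock replicate 3, against 21500 to 23900 in the other 4 mock libraries. The 4 h libraries were about as low, at 9160 to 13000 TPM in WT and 10900 to 15000 in bro1-1, while those at 2 h lay between 15200 and 23900. From 2 h to 4 h, 3 of the 4 markers fell in WT (list median -1.19 on the log2 scale) and none was called in bro1-1 (-0.83). Against mock none was called at either time, and the part of this difference in the member results at 4 h was not tested. The 2 mock libraries low in these markers also had the lowest SLAC1, ALMT12 and KAT1 of their group and the highest AHA1. Each comparison of ABA with mock, of the genotypes at mock and of the interaction was therefore also made without them.

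On the TPM scale the pumps were by far the most abundant members. In WT mock AHA1 was at 261 ± 70.8 TPM and AHA2 at 196 ± 46.2, a gap smaller than the SD of AHA1. ALMT12 (19.8 ± 9.83), KAT1 (17.8 ± 7.92) and SLAH3 (17.2 ± 6.22) came next, then SLAC1 (8.04 ± 3.15), GORK (7.83 ± 2.16), KAT2 (6.84 ± 1.81) and SLAH2 (4.76 ± 1.3). From ALMT12 to SLAH2 every pair of neighbours in this order overlapped in mean ± SD, while AHA2 lay above ALMT12 and SLAH1 (0.843 ± 0.582 TPM) below SLAH2 without overlap. The order in bro1-1 mock began with AHA1 (236 ± 65.2 TPM) and AHA2 (160 ± 44.3), followed by SLAH3 (15.3 ± 8.40), ALMT12 (14.8 ± 7.48), KAT1 (14.5 ± 6.52), GORK (7.48 ± 0.835), SLAC1 (7.09 ± 2.34) and KAT2 (5.26 ± 1.15), and again all neighbours from SLAH3 to KAT2 overlapped.

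At 2 h of ABA AHA1 stood at 220 ± 16.7 TPM in WT and 228 ± 10 in bro1-1, well above AHA2 (53.4 ± 15.8 and 83.5 ± 21.7). SLAH3 was the highest channel at 34.4 ± 12.2 TPM in WT, overlapping AHA2, and at 29.2 ± 10.4 in bro1-1. At the low end KAT2 (2.54 ± 0.423 and 2.53 ± 0.440) and SLAH2 (1.36 ± 0.384 and 1.5 ± 0.262) were below SLAC1 (7.43 ± 1.40 and 6.69 ± 1.54) without overlap. At 4 h in WT the channels ran SLAH3 (31.0 ± 8.22 TPM), GORK (25.5 ± 6.74) and ALMT12 (24.1 ± 4.66), which overlapped, then KAT1 (13.8 ± 3.23), SLAC1 (8.98 ± 1.66), KAT2 (4.42 ± 1.24), SLAH2 (0.897 ± 0.446) and SLAH1 (0.207 ± 0.168). KAT1 and SLAC1 barely overlapped there, and no neighbours below SLAC1 did. The bro1-1 order at 4 h was the same, with SLAH3 at 32.4 ± 5.69, GORK at 24.6 ± 3.01, ALMT12 at 19.2 ± 4.85 and KAT1 at 16.2 ± 4.92 TPM, each overlapping the next.

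**Figure D1:**
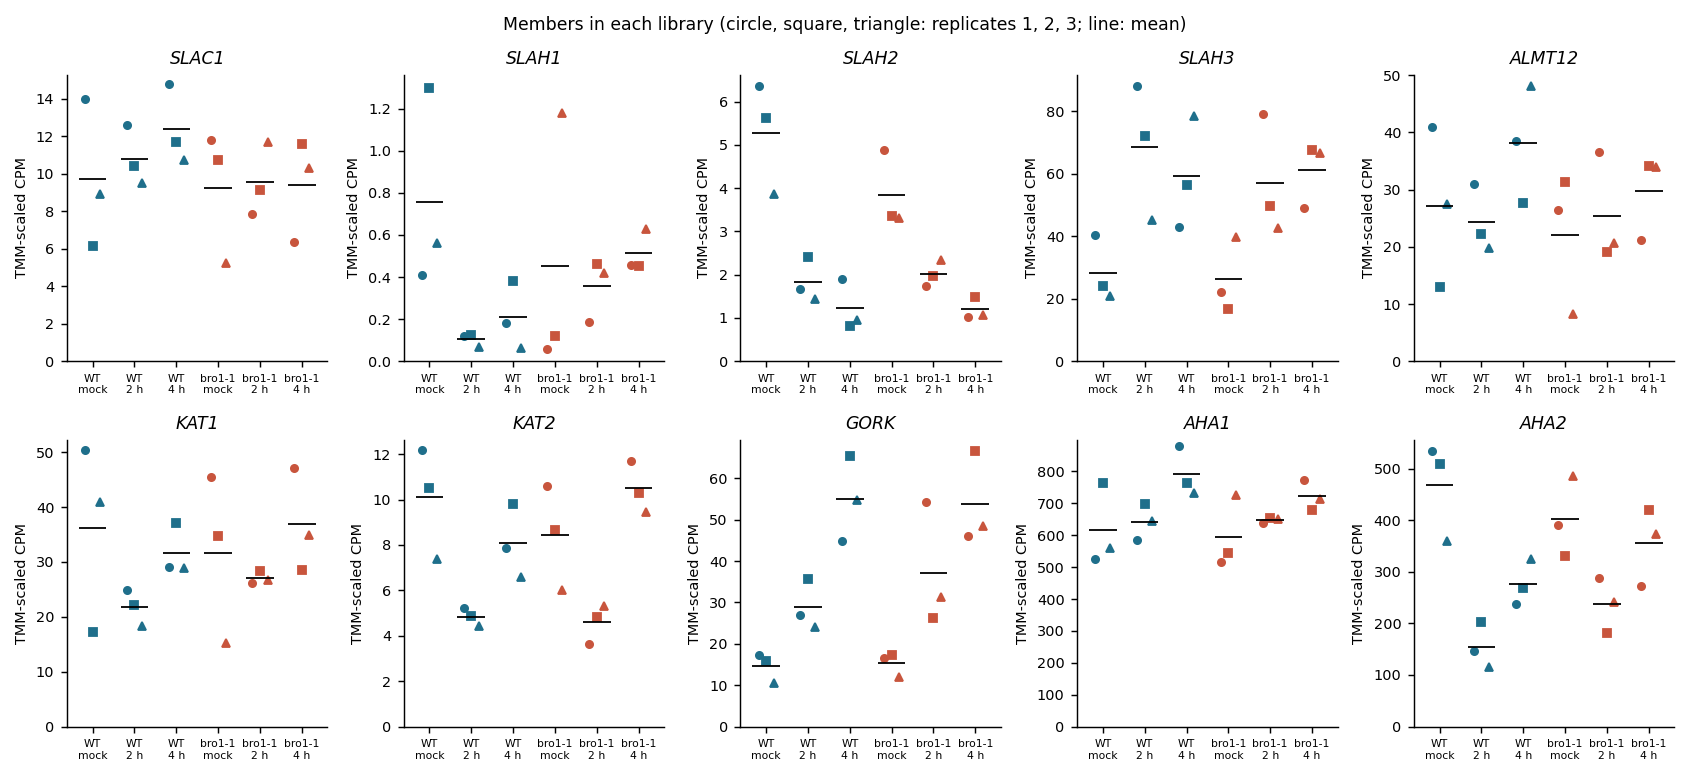
Each panel is a member; the y axis is TMM-scaled CPM from 0 and the x axis the 6 groups, with WT in blue and bro1-1 in red, circle, square and triangle for replicates 1, 2 and 3, and a line at the mean of 3 libraries. GORK and SLAH3 lie higher in all ABA libraries than in the mock libraries of their genotype, SLAH2 lies lower, and SLAC1 overlaps between all groups of a genotype.

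ABA was compared with mock within each genotype, to see which channels and pumps respond. A gene counts as called where its adjusted p was below 0.05 and it moved by more than 1 on the log2 scale in either direction. The filter on low counts kept 9 members in these comparisons and removed SLAH1. The 2 h and 4 h comparisons of a genotype share its mock libraries, and there was no separate mock for each time. Changes with ABA therefore cannot be told apart from changes with the time of harvest. In WT at 2 h, 1 of 9 members rose and 3 fell, where 10.9% of 19725 tested genes rose and 6.80% fell. In WT at 4 h, 2 rose and 1 fell (13.5% and 7.41% of 19880 genes). In bro1-1 at 2 h, 2 rose and 0 fell (13.4% and 8.45% of 19756 genes). In bro1-1 at 4 h, 2 rose and 1 fell (15.5% and 8.24% of 19958 genes). The median log2 fold change of the tested members was -0.18, 0.35, 0.02 and 0.23 in that order, and that of all genes lay between -0.04 and -0.01.

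**Figure D2:**
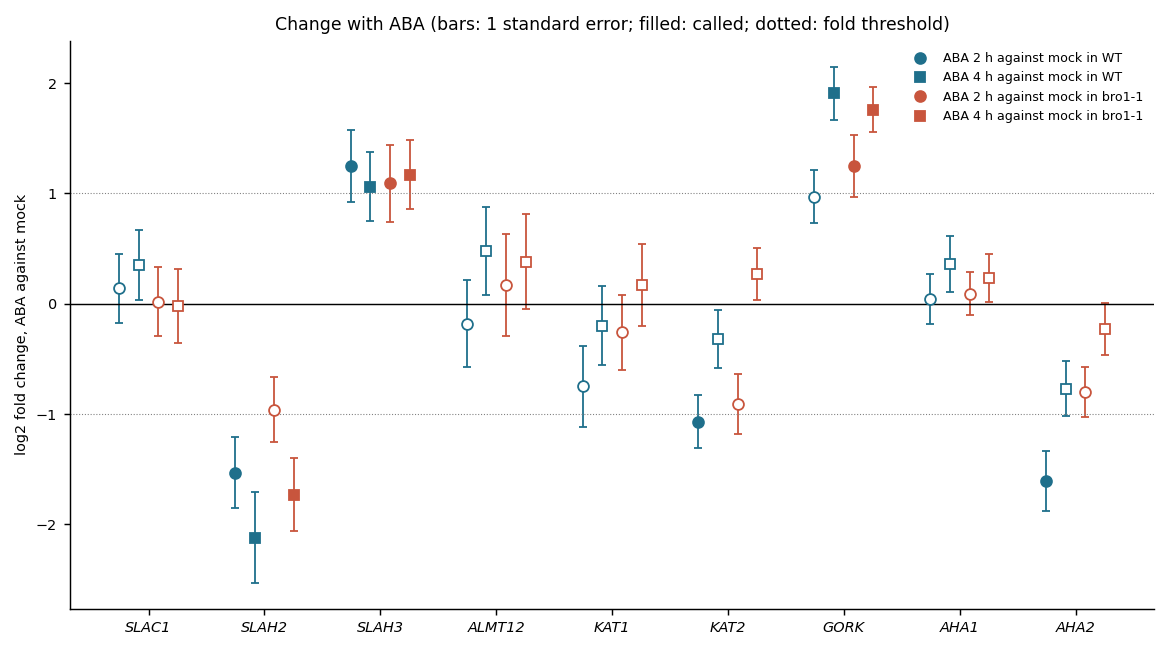
The y axis is the log2 fold change of ABA against mock and the x axis the 9 members tested; circles are 2 h, squares 4 h, blue WT and red bro1-1, bars are 1 standard error, filled symbols are called and dotted lines mark the fold threshold. GORK and SLAH3 stand above 0 and SLAH2 below 0 in all 4 comparisons, and the 4 values of SLAC1 lie between -0.02 and 0.35.

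SLAC1, the main slow anion channel of guard cells, was called in no comparison. Its levels were 14.0, 6.15 and 8.91 CPM in WT mock, 12.6, 10.4 and 9.52 at 2 h, and 14.8, 11.7 and 10.7 at 4 h. In bro1-1 they were 11.8, 10.7 and 5.24, then 7.82, 9.12 and 11.7, then 6.35, 11.6 and 10.3. The groups overlapped throughout. On the log2 scale ABA and mock differed by 0.14 (standard error 0.311) at 2 h and 0.35 (0.315) at 4 h in WT, and by 0.02 (0.316) and -0.02 (0.339) in bro1-1. At 4 h, 2 standard errors either side of these reached from -0.28 to 0.98 in WT and from -0.70 to 0.66 in bro1-1. Without the mock library low in mesophyll markers the WT values were -0.11 and 0.10 and those of bro1-1 -0.25 and -0.31, still uncalled.

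SLAH3, which passes nitrate and chloride and works beside SLAC1 in guard cells, rose in all 4 comparisons. In WT it went from 40.3, 24.0 and 20.8 CPM at mock to 88.2, 72.2 and 45.3 at 2 h and 42.9, 56.4 and 78.4 at 4 h. In bro1-1 it went from 22.1, 16.6 and 39.8 CPM to 79.1, 49.7 and 42.8 and then to 49.0, 67.6 and 66.7. No ABA library fell into the range of its mock group, although the lowest ABA libraries of each genotype, at 42.9 and 42.8 CPM, came close to the highest mock ones of 40.3 and 39.8 CPM. The log2 fold changes were 1.25 (standard error 0.325; adjusted p = 0.0283 by edgeR) and 1.06 (0.311; 0.0367) in WT, and 1.09 (0.352; 0.0412) and 1.17 (0.311; 0.0187) in bro1-1. These calls were the least stable of the set. In WT at 2 h the call was lost without mock replicate 2 or 3 or ABA replicate 1 or 2 (adjusted p = 0.0595, 0.0934, 0.0963 and 0.0868). In WT at 4 h it was lost without mock replicate 2 or 3 or ABA replicate 2 or 3 (0.0792, 0.127, 0.0700 and 0.134). Without bro1-1 mock replicate 1 or 2, or ABA replicate 1 or 2, the adjusted p at 2 h was 0.124, 0.106, 0.132 and 0.0680. Without bro1-1 mock replicate 1, or ABA replicate 2 or 3, it was 0.0689, 0.0610 and 0.0541 at 4 h, and without mock replicate 2 the log2 fold change there was 0.90 (adjusted p = 0.0475). Without bro1-1 mock replicate 3, the library low in mesophyll markers, both bro1-1 values were larger, at 1.54 and 1.61.

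SLAH2, a nitrate-selective anion channel known from the root stele, moved the other way. Its WT levels were 6.35, 5.62 and 3.87 CPM at mock, 1.66, 2.41 and 1.45 at 2 h, and 1.89, 0.821 and 0.950 at 4 h. In bro1-1 they were 4.88, 3.36 and 3.32, then 1.75, 1.98 and 2.33, then 1.03, 1.48 and 1.08. Every ABA library lay below every mock library of its genotype. SLAH2 fell by 1.53 on the log2 scale (standard error 0.323, adjusted p = 0.0135) at 2 h and by 2.12 (0.411, adjusted p = 0.00766) at 4 h in WT, and by 1.73 (0.332, adjusted p = 0.00448) at 4 h in bro1-1. At 2 h in bro1-1 the log2 fold change was -0.96 (0.293, adjusted p = 0.0341), under the fold threshold, and -1.04 (adjusted p = 0.0399) without mock replicate 3. The WT call at 2 h was lost without ABA replicate 1 (adjusted p = 0.0537). Without the mock library low in mesophyll markers the called values were -1.49 and -2.07 in WT and -1.83 in bro1-1, all still called. The root markers moved in part with it in WT: their summed level was 49.0 to 85.6 TPM at mock, 18.9 to 35.6 at 2 h and 15.2 to 51.0 at 4 h. In bro1-1 the same sum was 23.9 to 71.9, 21.3 to 83.4 and 45.2 to 80.7 TPM, overlapping at every time. Of the 6 root markers tested, PHO1 alone fell in WT (at 2 h and 4 h), none fell in bro1-1, RHD6 rose there at 4 h, and none of the 7 on the list was at 0 in a whole group. The part of root material in the SLAH2 result was not tested.

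SLAH1, a root protein that modulates SLAH3, was close to the detection limit. It had 8, 25 and 10 counts in WT mock, 2, 2 and 1 at 2 h, and 3, 7 and 1 at 4 h. In bro1-1 it had 1, 2 and 21 counts at mock, 3, 7 and 7 at 2 h, and 8, 7 and 11 at 4 h. With 3 counts per library taken as the floor, WT at 2 h was at least 4.01-fold lower than WT mock, and at least 2.57-fold lower without the mock library with the most counts, which is replicate 2. The filter removed it from the test reported, but it was called lower in WT at 2 h by DESeq2 (adjusted p = 0.0183), by edgeR without the filter (0.0331) and with all 18 libraries (0.0313). It was also tested with 1 library left out in 4 cases, and called without mock replicate 1 (0.0184) but not without ABA replicate 1, 2 or 3 (0.0823, 0.0798 and 0.0788). The highest library in both mock groups was the one low in mesophyll markers.

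ALMT12, the rapid-type anion channel of guard cells, was called in no comparison. It ranged from 12.9 to 41.0 CPM over the WT mock libraries and from 8.28 to 31.4 over those of bro1-1, the widest mock spread in relation to the mean after SLAH1. Its ABA means were 24.3 ± 5.92 and 38.1 ± 10.2 CPM in WT and 25.4 ± 9.72 and 29.8 ± 7.42 in bro1-1. All log2 fold changes against mock lay between -0.18 and 0.48 with standard errors of 0.396 to 0.463, and without the mock library low in mesophyll markers between -0.51 and 0.14.

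GORK, the outward K+ channel through which guard cells lose K+ on closure, had the largest called rise among the members. In WT it went from 17.4, 15.9 and 10.6 CPM at mock to 26.9, 35.7 and 24.1 at 2 h and 44.9, 65.5 and 54.8 at 4 h. In bro1-1 it went from 16.5, 17.4 and 12 CPM to 54.2, 26.2 and 31.2 and then 46.1, 66.5 and 48.5. The ABA libraries lay above the mock libraries in both genotypes at both times. At 4 h GORK rose by 1.91 on the log2 scale (standard error 0.240, adjusted p = 0.00125 by edgeR) in WT and 1.76 (0.204, adjusted p = 0.000402) in bro1-1, and at 2 h in bro1-1 by 1.25 (0.284, adjusted p = 0.0110). At 2 h in WT the value was 0.97 (0.240, adjusted p = 0.0243), just under the fold threshold, and it passed at 1.11, 1.02 and 1.07 without mock replicate 1, mock replicate 2 or ABA replicate 3. Without ABA replicate 1, the highest at 54.2 CPM, the bro1-1 value at 2 h was 0.89 (adjusted p = 0.0195) and was not called. Both calls at 4 h held whichever library was left out, with values from 1.70 to 2.04 in WT and from 1.55 to 1.85 in bro1-1, and 1.97 and 1.61 without the mock library low in mesophyll markers.

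KAT2, an inward K+ channel of guard cells and veins, was lower at 2 h and back near the mock level at 4 h. Its WT levels were 12.2, 10.5 and 7.39 CPM at mock, 5.21, 4.89 and 4.43 at 2 h, and 7.85, 9.80 and 6.59 at 4 h. The bro1-1 levels were 10.6, 8.65 and 6.03, then 3.63, 4.82 and 5.32, then 11.7, 10.3 and 9.47. In both genotypes the 2 h libraries lay below all mock and all 4 h libraries. KAT2 fell by 1.07 on the log2 scale at 2 h in WT (standard error 0.239, adjusted p = 0.0169). In bro1-1 the value was -0.91 (0.271, adjusted p = 0.0313), under the fold threshold, and -1.08 (adjusted p = 0.0122) without mock replicate 3. The WT call was lost without mock replicate 1 (log2 fold change -0.90), ABA replicate 2 (adjusted p = 0.0641) or ABA replicate 3 (adjusted p = 0.0538), and held at -1.04 without mock replicate 2, the library low in mesophyll markers.

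KAT1, the best known inward K+ channel of guard cells, was not called. In WT it measured 50.5, 17.2 and 40.9 CPM at mock, 24.9, 22.2 and 18.3 at 2 h and 29.0, 37.1 and 28.9 at 4 h. In bro1-1 the mock libraries were at 45.4, 34.7 and 15.2 CPM, those at 2 h at 26.2, 28.4 and 26.7, and those at 4 h at 47.2, 28.5 and 34.9. The low mock value in each genotype came from the library low in mesophyll markers. The WT log2 fold change at 2 h was -0.75 (standard error 0.368, adjusted p = 0.172), and without mock replicate 2 it was -1.09 (adjusted p = 0.00603) and passed the thresholds. In bro1-1 at 2 h the value was -0.26 (0.342, adjusted p = 0.58). Without mock replicate 3 it was -0.58 (adjusted p = 0.0224), under the fold threshold. At 4 h the values were -0.20 (0.359) in WT and 0.17 (0.369) in bro1-1.

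The ratio of GORK to the summed TPM of KAT1 and KAT2 sets the outward channel against the inward ones in each library. It was 0.276, 0.541 and 0.221 in WT mock, 0.894, 1.35 and 1.07 at 2 h, and 1.21, 1.43 and 1.57 at 4 h. In bro1-1 it was 0.294, 0.395 and 0.547 at mock, 1.85, 0.792 and 0.979 at 2 h, and 0.790, 1.71 and 1.1 at 4 h. No ABA library reached down to the mock range, and the genotypes overlapped at 2 h and at 4 h. The highest mock ratio of each genotype, 0.541 and 0.547, came from the library low in mesophyll markers. At 4 h GORK was called against mock while KAT1 and KAT2 were not, so the ratio there mostly repeats the GORK rise. In whole seedlings these transcripts need not come from the same cells.

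**Figure D3:**
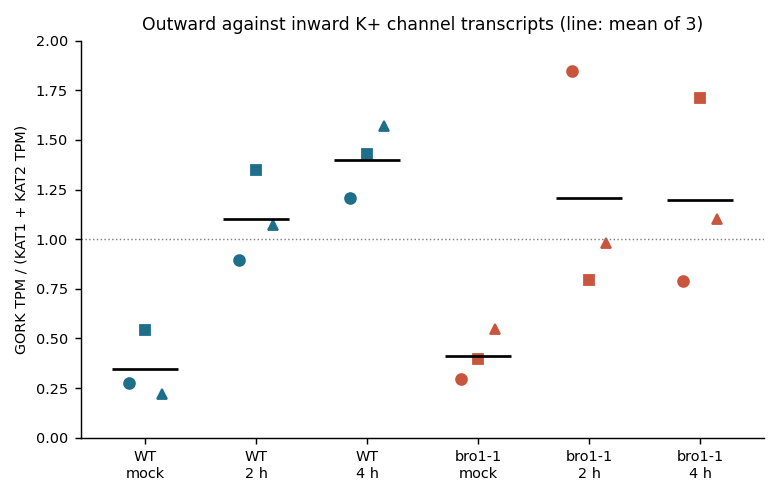
The y axis is GORK TPM divided by the sum of KAT1 and KAT2 TPM in each library and the x axis the 6 groups, with WT in blue, bro1-1 in red, symbols for replicates 1 to 3, a line at the mean, and a dotted line where the channels are equal. All 6 mock libraries lie at or below 0.547 and all 12 ABA libraries at or above 0.790.

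Of the other Shaker K+ channels, 4 of 6 were tested. AKT2, a channel of the phloem that conducts K+ both ways, rose in all 4 comparisons, from 4.34 to 35.2 CPM in WT at 2 h (3.0 on the log2 scale, standard error 0.451, adjusted p = 0.00367). In bro1-1 it went from 4.35 to 36.1 CPM at 2 h (3.02, 0.460, adjusted p = 0.00193). AKT1, the root K+ uptake channel, fell in 3 comparisons and was at -0.65 in bro1-1 at 4 h. KC1 and SKOR were not called. Among 6 other ALMT channels 5 were tested. In WT 0 were called at 2 h and 1 rose at 4 h. In bro1-1, 1 rose and 1 fell at 2 h, and 2 rose at 4 h. The vacuolar ALMT9 rose at 4 h in both genotypes (1.06 in WT and 1.17 in bro1-1). Over the 4 comparisons, 10.9% to 15.5% of all genes rose and 6.8% to 8.45% fell.

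AHA1, the more abundant of the pumps, was called in no comparison. It had 527, 764 and 559 CPM in WT mock, 584, 697 and 644 at 2 h, and 881, 765 and 732 at 4 h. In bro1-1 it had 516, 544 and 726, then 638, 654 and 652, then 774, 680 and 713. These groups overlapped between mock and ABA, and the log2 fold changes of 0.04, 0.36, 0.09 and 0.23 (standard errors 0.227, 0.258, 0.194 and 0.217) were not called.

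AHA2 was lowest at 2 h. In WT it went from 535, 510 and 359 CPM at mock to 147, 202 and 116 at 2 h and 238, 268 and 324 at 4 h. In bro1-1 it went from 391, 330 and 486 CPM to 288, 181 and 242 and then 272, 419 and 373. The ABA libraries of WT lay below all WT mock libraries at both times, whereas those of bro1-1 did so only at 2 h. AHA2 fell by 1.61 on the log2 scale at 2 h in WT (standard error 0.273, adjusted p = 0.00583), a call that held whichever library was left out (-1.84 to -1.45, and -1.55 without the mock library low in mesophyll markers). At 4 h in WT the log2 fold change was -0.77 (0.248, adjusted p = 0.0502), in bro1-1 at 2 h -0.80 (0.229, adjusted p = 0.0271) and at 4 h -0.23 (0.234, adjusted p = 0.454), none of them called. The summed root markers, given above with SLAH2, were lower at 2 h in every WT library than at mock, and their part in the AHA2 result was not tested.

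The other 9 members of the AHA family were set beside AHA1 and AHA2. AHA11 rose at 2 h in both genotypes (1.78 in WT and 1.53 in bro1-1 on the log2 scale), from a mean of 29.6 ± 5.18 to 83.7 ± 6.3 TPM in WT, and stood at 46.9 ± 7.13 TPM at 4 h. AHA5 fell at 2 h in both (-1.24 and -1.11). AHA3, known from phloem companion cells, was not called and lay between 65.5 and 133 TPM. AHA6, a pollen pump, was listed at 0 in every group. Over the 7 tested, 1 rose and 1 fell at 2 h in each genotype, and none was called at 4 h. At 2 h, 10.9% of all tested genes rose and 6.8% fell in WT, and 13.4% and 8.45% in bro1-1. At 4 h these shares were 13.5% and 7.41% in WT and 15.5% and 8.24% in bro1-1.

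As a share of the summed TPM of the 11 pumps, AHA2 held 39.8%, 30.2% and 28.0% in WT mock, 12.4%, 15% and 9.08% at 2 h, and 14.7%, 17% and 21.2% at 4 h. In bro1-1 it held 32.4%, 27.1% and 30.8%, then 20.7%, 13.6% and 17.6%, then 16.4%, 26.3% and 22.2%. Each ABA group lay below the mock group of its genotype without overlap (exact two-sided permutation p = 0.1, the smallest that 3 libraries against 3 can give; adjusted p = 0.257 over 18 comparisons of this family). AHA11 went from 4.98 ± 0.96% to 19.3 ± 2.44% of the sum at 2 h in WT and from 5.32 ± 0.66% to 15.6 ± 0.752% in bro1-1. The summed level itself was 604 ± 127 TPM in WT mock, 436 ± 24 at 2 h and 571 ± 57.1 at 4 h, and 528 ± 126, 478 ± 31.8 and 599 ± 67.4 TPM in bro1-1. WT at 2 h lay below WT mock in every library on this scale (exact p = 0.1), and the highest mock library in each genotype was the one low in mesophyll markers. TPM and TMM scaling differ here: the median log2 ratio of ABA 2 h to mock in WT over 20637 genes was lower by 0.29 on the TPM scale, and TMM-scaled counts per kilobase summed to 426 ± 62 at mock and 379 ± 23.4 at 2 h, which overlap.

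**Figure D4:**
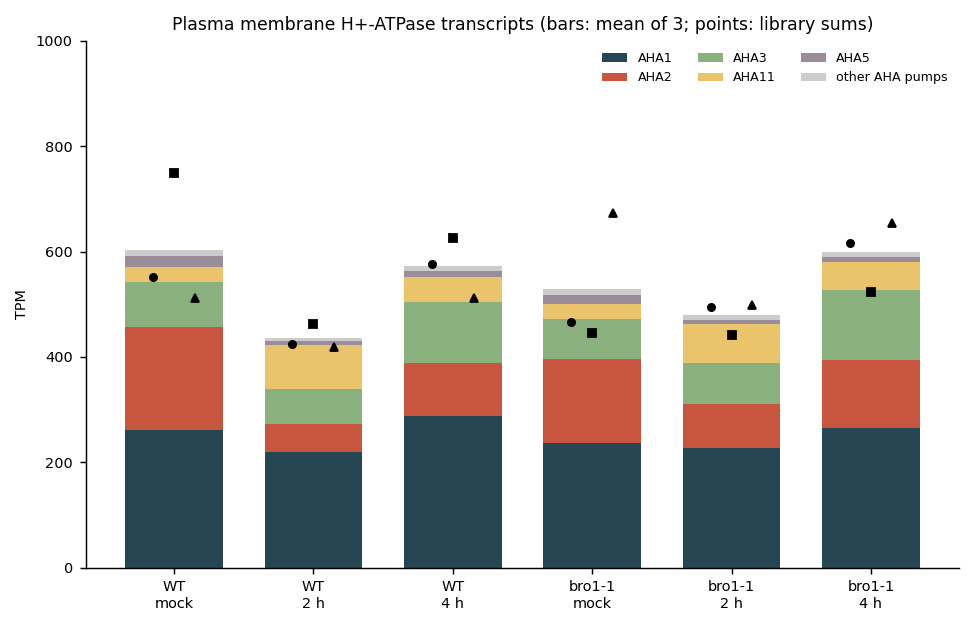
The y axis is TPM from 0 and the x axis the 6 groups; stacked bars are means of 3 libraries for AHA1, AHA2, AHA3, AHA11, AHA5 and the other AHA pumps, and black points are the sums of single libraries. The AHA2 segment shrinks from 196 TPM in WT mock to 53.4 at 2 h while the AHA11 segment grows from 29.6 to 83.7.

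Regulators of these proteins were taken as a list. Beside the counts that follow stand the shares over all genes given above: 10.9% rose and 6.8% fell in WT at 2 h, 13.5% and 7.41% in WT at 4 h, 13.4% and 8.45% in bro1-1 at 2 h, and 15.5% and 8.24% in bro1-1 at 4 h. Of 19 regulators of the channels, 3 rose and 5 fell in WT at 2 h, 5 rose and 2 fell in WT at 4 h, 4 rose and 2 fell in bro1-1 at 2 h, and 5 rose and 1 fell in bro1-1 at 4 h. The number that rose in WT at 2 h, and the numbers that fell in the other 3 comparisons, were within 1 gene of these shares, and the list median lay between 0.02 and 0.10 on the log2 scale. The phosphatases ABI2, PP2CA and ABI1, which restrain OST1 and with it SLAC1, rose in all 4 comparisons. ABI2 went from 8.20 to 280 CPM in WT at 2 h (log2 fold change 5.07, standard error 0.306, adjusted p = 0.000143), PP2CA from 31.0 to 749 CPM and ABI1 from 65.8 to 934 CPM. OST1, the kinase that opens SLAC1, rose at 4 h (1.78 in WT and 1.66 in bro1-1) and was at 0.71 and 0.92 at 2 h, under the fold threshold. From 2 h to 4 h it rose in WT (1.04, standard error 0.190, adjusted p = 0.0199) and was not called in bro1-1 (0.71, 0.177, adjusted p = 0.0881). HT1, a kinase of the CO2 response that counters closure, fell in all 4, from 10.1 to 3.02 CPM in WT at 4 h (-1.75, 0.269, adjusted p = 0.00287).

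Of 11 regulators of the pumps, 4 fell in WT at 2 h and 4 h, 5 fell in bro1-1 at 2 h and 4 at 4 h, while 0, 1, 1 and 1 rose, against 6.8% to 8.45% of all genes falling and 10.9% to 15.5% rising. The list median was -0.70, -0.55, -0.73 and -0.75 on the log2 scale, against -0.04 to -0.01 over all genes. PHOT1, the blue light receptor that starts pump activation in guard cells, fell from 284 to 109 CPM in WT at 4 h (-1.39, standard error 0.196, adjusted p = 0.00199), and BLUS1, a kinase directly below it, from 14.5 to 5.68 CPM (-1.36, 0.324, adjusted p = 0.0171). SAUR19, whose protein keeps pumps active by blocking their dephosphorylation, fell from 3.73 to 0.358 CPM. AT5G02760, a PP2C-D type phosphatase gene, fell from 102 to 3.68 CPM (-4.79, 0.485, adjusted p = 0.000528). The list thus holds both activators and a phosphatase among the genes that fell, and PHOT2, the other phototropin, rose in 3 comparisons.

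Of 14 vacuolar and other stomatal transporters, 4 or 5 rose and 0 or 1 fell in each comparison, where 10.9% to 15.5% of all genes rose and 6.8% to 8.45% fell. The vacuolar cation exchangers NHX1 and NHX2 and the K+ transporter KUP6 rose in all 4. NHX1 went from 58.6 to 320 CPM in WT at 4 h (2.44, standard error 0.256, adjusted p = 0.000594), NHX2 from 8.48 to 58.8 CPM in bro1-1 at 4 h, and KUP6 from 29.1 to 79.4 CPM in WT at 4 h.

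The guard cell markers did not move as a block. Of 10, 2 rose and 5 fell in WT at 2 h, 2 rose and 3 fell in WT at 4 h, 2 rose and 4 fell in bro1-1 at 2 h, and 2 rose and 3 fell in bro1-1 at 4 h, beside the same shares of all genes. MYB60, a guard cell MYB factor of stomatal opening, fell from 19.5 to 5.31 CPM in WT at 4 h (-1.88, standard error 0.295, adjusted p = 0.00323), and AT1G22690 from 212 to 23.9 CPM. CYP86A2, a cutin enzyme, rose from 120 to 723 CPM, and AT2G16630 from 17.1 to 184 CPM. The summed guard cell markers were 1910 to 2850 TPM in WT mock, 1900 to 2310 at 2 h and 1140 to 1620 at 4 h, and 2230 to 2530, 2080 to 2540 and 1400 to 1930 TPM in bro1-1. At 4 h the sum was below the mock range in both genotypes, at the time when GORK and SLAH3 were above theirs. In the mock groups most of the sum came from TGG1 and AT1G22690, so it follows these genes more than the list. Their means went from 1080 and 842 TPM in WT mock to 523 and 78.9 at 4 h. In bro1-1 they went from 1220 and 743 TPM to 918 and 81.2. None of these markers was at 0, and the part of guard cell number in the member results was not tested. HT1 and MPK12 are on this list and on that of the channel regulators.

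From 2 h to 4 h of ABA no member was called in either genotype. Over all genes 2.12% of 19485 rose and 1.55% fell in WT, and 0.56% of 19815 rose and 0.505% fell in bro1-1. These shares were unstable: the 211 genes called in bro1-1 became 0 without ABA 2 h replicate 2 or 3, 3 without ABA 4 h replicate 1, 67 and 79 without ABA 4 h replicate 2 or 3 and 355 without ABA 2 h replicate 1, and 692 were called by DESeq2. The 716 called in WT became 246 without ABA 4 h replicate 1, 313 without ABA 2 h replicate 1 and 443 without ABA 2 h replicate 2. GORK in WT had the smallest adjusted p there (log2 fold change 0.91, standard error 0.197, adjusted p = 0.0315), under the fold threshold, and passed both thresholds without ABA 2 h replicate 2 (1.11, adjusted p = 0.0402). KAT2 in bro1-1 stood at 1.14 (0.217, adjusted p = 0.0503), past the fold threshold but not the adjusted p. DESeq2 called it (adjusted p = 0.00069), as did edgeR without the filter (0.0408) and with all 18 libraries in 1 fit (0.0275). For KAT2 in WT the value was 0.72 (0.221, adjusted p = 0.0839), and for AHA2 in WT 0.82 (0.225, adjusted p = 0.0622).

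bro1-1 was compared with WT at each time to see whether the mutant differs in these transcripts. No member was called at mock, at 2 h or at 4 h, where 0.0153% of 19610, 0.0308% of 19501 and 0.0202% of 19801 genes were called in either direction. SLAH1 passed the filter on low counts at mock and in the interactions given below, and was not called in them. At 2 h and 4 h its WT and bro1-1 libraries did not overlap in CPM (means of 0.104 and 0.356 at 2 h and of 0.210 and 0.512 at 4 h). At 4 h a library of each genotype had 7 counts. The filter removed SLAH1 at both times, no alternative that tested it there called it, and all 3 WT libraries at 2 h were at or under the floor of 3 counts. KAT1 at 2 h did not overlap either (24.9, 22.2 and 18.3 CPM in WT, 26.2, 28.4 and 26.7 in bro1-1). Its log2 fold change was 0.31 (standard error 0.144, adjusted p = 0.717 by edgeR). The share of all genes without such overlap was not counted. Over the 9 members other than SLAH1, the log2 fold changes ran from -0.45 to 0.06 at mock, from -0.26 to 0.61 at 2 h and from -0.42 to 0.36 at 4 h. The values that lay farthest from 0 were SLAH2 at mock (-0.45, standard error 0.289), AHA2 at 2 h (0.61, 0.237, adjusted p = 0.679) and SLAC1 at 4 h (-0.42, 0.252). With 2 standard errors on each side, AHA2 at 2 h spanned 0.14 to 1.08, and its WT and bro1-1 libraries overlapped. GORK differed by 0.06, 0.36 and -0.05 at the 3 times.

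The interaction of genotype and ABA asks whether the response itself differed. No member was called at 2 h or 4 h, and over all genes 0% of 20330 and 0% of 20480 were called by edgeR, with 1041 and 1218 at an unadjusted p under 0.05 and 17 and 12 called by DESeq2. For AHA2 the bro1-1 response at 2 h was smaller than that of WT by 0.84 on the log2 scale (standard error 0.357, 2 standard errors either side 0.13 to 1.55), with an adjusted p of 0.909. The root markers moved the same way: the median interaction of the 6 tested was 1.12 at 2 h and 2.05 at 4 h, with none called, and their part in the AHA2 value was not tested. For GORK the interaction was 0.30 (0.399) at 2 h and -0.10 (0.323) at 4 h, for SLAH3 -0.14 (0.524) and 0.16 (0.483), and for SLAH2 0.59 (0.412) and 0.43 (0.509). SLAH1 had the values farthest from 0, with 2.44 (1.38) and 1.96 (1.31), from few counts. With 2 standard errors on each side the GORK interaction spanned -0.50 to 1.1 at 2 h and -0.75 to 0.55 at 4 h, that of SLAH3 -1.19 to 0.91 and -0.81 to 1.13, and that of SLAH2 -0.23 to 1.41 and -0.59 to 1.45. A difference in response of the size of the fold threshold thus lay inside all of these intervals but that of GORK at 4 h. Without both mock libraries low in mesophyll markers, no member was called at mock or in either interaction, with a lowest adjusted p of 0.854, 0.542 and 0.416.

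**Figure D5:**
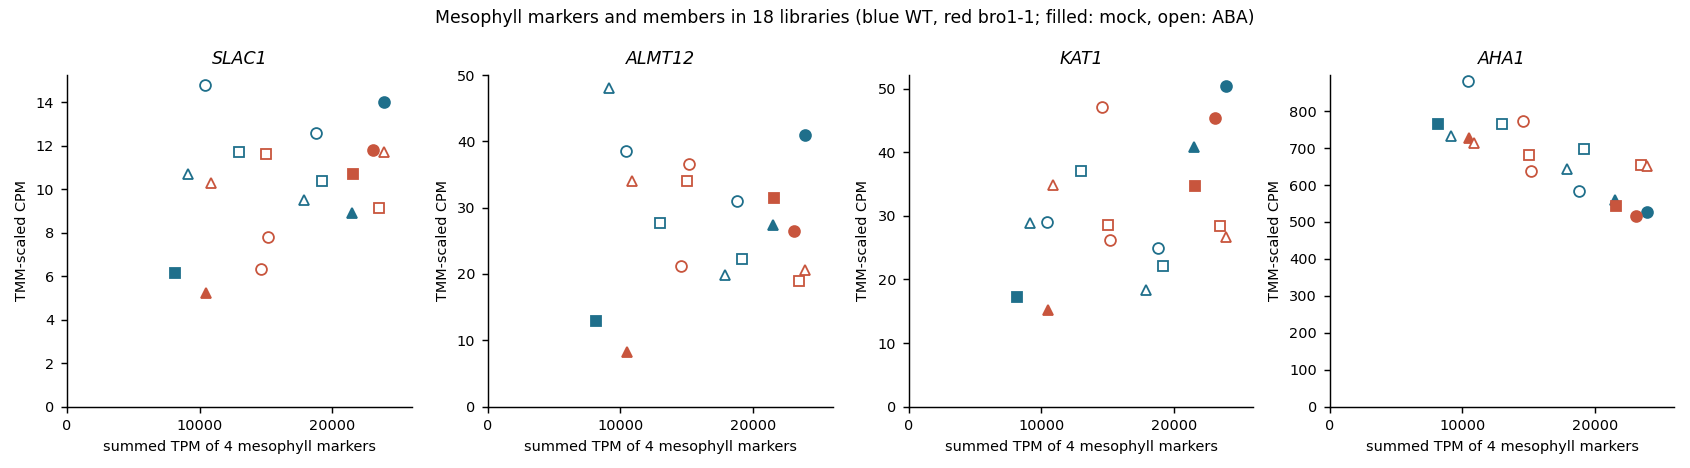
The x axis is the summed TPM of 4 mesophyll markers and the y axis the TMM-scaled CPM of SLAC1, ALMT12, KAT1 and AHA1 in each of the 18 libraries, WT in blue and bro1-1 in red, filled for mock and open for ABA. The filled square and triangle at 8180 and 10500 TPM are WT mock replicate 2 and bro1-1 mock replicate 3, low in the first 3 genes and high in AHA1.

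Among libraries of a group, some members moved with the mesophyll markers. Over 18 libraries the deviations from the group means correlated with those of the summed mesophyll markers at r = 0.829 for KAT1, 0.735 for SLAC1 and 0.595 for ALMT12. For AHA1 r was -0.771, for SLAH1 -0.627 and for GORK -0.0177. With the root markers r was 0.51 for AHA2, 0.417 for GORK, 0.402 for SLAH3 and -0.111 for SLAH2. With the guard cell markers it was 0.575 for SLAC1, 0.519 for ALMT12, -0.524 for SLAH1, -0.487 for AHA1, 0.16 for KAT1 and 0.0273 for GORK. Between members, the deviations of SLAC1 and ALMT12 correlated at 0.742, those of ALMT12 and KAT1 at 0.667, those of SLAH3 and AHA2 at 0.759, and those of AHA1 and ALMT12 at -0.838. These points share libraries and scaling factors and rest in part on the 2 mock libraries, so they describe the libraries only.

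The genes whose levels followed the members most closely over the 18 libraries were named by Pearson's r of log2 CPM among 20637 genes. For GORK they were HCHIB (r = 0.975) and AT5G02420 (0.967), and for SLAH3 TBL27 (0.95) and MLO12 (0.935). For SLAH2 they were AT1G63350 (0.943) and AT2G43140 (0.933), and for AHA2 AT2G17710 (0.932) and AT1G56140 (0.922). AHA1 was followed by COI1 (0.915) and RAD4 (0.903), KAT2 by NRPD1A (0.865) and BZIP27 (0.85), and KAT1 by UBP21 (0.854). ALMT12 was followed by NPC2 (0.856) and AT3G25410 (0.849), SLAC1 by LAZ5 (0.829) and EMB2759 (0.794), and SLAH1 by AAP4 (0.837) and GTR2 (0.831). Each r was picked as among the highest of 20637 and runs across all groups, so shared changes with ABA enter it. SLAH1 had only 1 to 25 counts in a library. These values describe the libraries only.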

How the data were processed

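RNA-seq of 18 Arabidopsis libraries (6 groups of 3) was analysed from the authors' deposited RSEM output. Per the study's methods and the submitters' processing notes, the authors trimmed reads with BBDUK2, discarded rRNA reads with Bowtie2 2.3.5.1 and estimated expression with RSEM 1.2.30. The deposited expected counts are not normalized between libraries (1.77% to 2.06% of them are not whole), and the deposited TPM are scaled within each library. Genome build, annotation release and strand setting are not given in the sources used here. Multiply mapped reads are shared out by RSEM. The positions and sequences are from TAIR10.1.

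Expected counts were rounded and tested over all genes with edgeR 4.0.16 in R 4.3.3. The settings were filterByExpr, TMM factors computed within each comparison, the quasi-likelihood test and Benjamini-Hochberg adjustment. The code was also run on simulated data, with larger changes than those of most members, so that run does not bear on the member calls. Each pair of groups was fitted on its 6 libraries and each interaction on 12. Standard errors are the absolute log2 fold change divided by the square root of F. CPM, with TMM factors of 0.896 to 1.15 over 18 libraries, follow each gene over libraries, and TPM compare genes. log2 CPM for correlations used a prior count of 2. Replicates differed by more than sampling noise in each pair. Alternatives were DESeq2 1.42.0, RLE factors, no filter, no fold threshold, the replicate block, all 18 libraries and leaving out each library. Members and lists were chosen with earlier results of these data known. Named beyond the members were AtBro1, RAB18, RD29A and RD29B, list genes called the same way in all 4 ABA comparisons (up to 4 a list, by size at 4 h in WT) and the 2 closest genes by correlation, of which 1 is not reported here. The other genes named were chosen after their values were seen.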

Additional observations from a re-analysis of the deposited data

How the results depend on the processing

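None of the 12 called member results changed sign under any alternative run, and 5 kept the call under all of them: GORK at 4 h in both genotypes, SLAH2 at 4 h in both, and AHA2 at 2 h in WT. Of 90 uncalled results, 39 changed sign when 1 library was left out. The number of members called ran from 2 to 5 in WT at 2 h (4 in the test reported), from 2 to 3 in WT at 4 h (3), from 0 to 4 in bro1-1 at 2 h (2), from 2 to 3 in bro1-1 at 4 h (3) and from 0 to 1 for WT 4 h against 2 h (0) as each library was left out. DESeq2, no filter and all 18 libraries also gave 5 in WT at 2 h, the added member being SLAH1. Without the fold change threshold, 5 members were called at 2 h in each genotype, with GORK added in WT, and 1 for WT 4 h against 2 h. For bro1-1 4 h against 2 h, 1 member, KAT2, was called by DESeq2, without the filter and with all 18 libraries. The comparisons of genotypes and the interactions had 0 members called under every alternative. The cause of these shifts was not tested.

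The replicate numbers showed no pairing of the libraries: no comparison had all 3 same-numbered correlations of deviations over 0.1. The correlation for number 1 was 0.464 between the genotypes at mock, and 3 libraries a group are too few to exclude a pairing. With the replicate block, 1 member was called in bro1-1 at 2 h and 2 in WT at 4 h, SLAH3 being lost in both, while the other counts of members called stayed at 4, 3 and 0. The order of levels was the same on TMM-scaled counts per kilobase except in bro1-1 mock, where SLAH3 took place 4 and ALMT12 place 3. On that scale, added after seeing the data, the summed AHA level differed from mock by 42.0 in WT at 4 h and by 7.3 in bro1-1 at 2 h, against -33.0 and -50.0 on TPM. With each library left out, these TPM differences ran from -79.2 to 39.3 and from -91.4 to 22.8, the difference of bro1-1 from WT at 4 h from -1.56 to 65.5, and that of the AHA2 share at mock from -4.92 to 0.989 percentage points. A count of 3 per library limits what can be said of SLAH1, and 3 libraries a group cannot resolve small changes of SLAC1, ALMT12 and KAT1.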
